A study of Mus musculus with 48 samples.

Results

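Fibroblast growth factor (FGF) signalling was followed through 9 genes in astrocytes of the mouse cortex, hippocampus and olfactory bulb: the receptors Fgfr1, Fgfr2 and Fgfr3, the receptor-like protein Fgfrl1, the ligands Fgf1 and Fgf2, and the Sprouty feedback inhibitors Spry1, Spry2 and Spry4. The genes were taken by symbol from the 24421 symbols of each deposited table, and all 9 were listed in all 6 tables. Bulk RNA-seq libraries (48, in 15 groups) had been made from total RNA of cells labelled astrocyte, in a study of how inhibitory input and the astrocyte GABAB receptor shape astrocyte form. Astrocytes with no labelled genotype or treatment came from postnatal days 1, 7 and 14 (P1, P7 and P14), with 3 libraries for each age and region except cortex P14, which had 4. At P28, astrocytes of Gabbr1 control animals were set against astrocytes of Gabbr1 conditional knockout (cKO) animals, with 4 control and 4 cKO libraries from cortex, 2 and 4 from hippocampus, and 3 and 3 from olfactory bulb. Gabbr1 encodes a subunit of the GABAB receptor. Tamoxifen was labelled for control and cKO libraries alike from P28 hippocampus and olfactory bulb. In P28 cortex it was labelled for controls 3 and 4 and cKO 4, while the other 5 libraries (controls 1 and 2, cKO 1 to 3) carried no treatment label. The labels give no Cre driver, strain or sex, and nothing says that libraries of a group came from separate animals, so p-values measure only the spread between these libraries.

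FGFs bind receptor tyrosine kinases at the cell surface together with heparan sulfate, and the activated receptors signal through RAS and a kinase cascade that ends in MEK and ERK. ERK activity induces ETS-family factors such as Etv4 and Etv5 and also induces inhibitors of the same route, among them the Sprouty proteins, Spred1 and the ERK phosphatase Dusp6. Fgfr3 is a well-known gene of the astrocyte lineage, Fgf1 and Fgf2 are ligands made in the brain, and Fgfrl1 binds FGFs but lacks the kinase domain of the other receptors.

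From P1 to P14 the ligand Fgf1 and the receptor Fgfr3 had the largest rises of the 9 genes, in all 3 regions. In cortex, hippocampus and olfactory bulb mean Fgf1 rose 13.3-fold, 55.3-fold and 108-fold, and mean Fgfr3 rose 5.90-fold, 5.70-fold and 79.3-fold. Fgfrl1, Fgfr2 and Spry2 also rose in the 3 regions, so that 5 of the 8 genes tested in every region did so. Fgfr1 and Spry1 fell in hippocampus and rose in olfactory bulb. Spry4 rose in cortex and did not pass the test in the other regions. Called changes here and below have a Benjamini-Hochberg adjusted p under 0.05 in limma on log2(value + 1), fitted to all genes whose normalized values averaged 10 or more over the table. In cortex 8 of 9 genes were called from P1 to P14, beside 64.4% of all genes tested (24.0% higher and 40.3% lower). Hippocampus had 7 of 8 called, 5 higher and 2 lower, beside 49.5% (21.0% higher and 28.5% lower). Olfactory bulb had 7 of 8 called, all higher, beside 56.1% (24.8% higher and 31.4% lower). The median log2 change of the tested members was 1.30, 0.82 and 1.5 in the 3 regions, against -0.27, -0.29 and -0.24 for all genes.

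**Figure D1:**
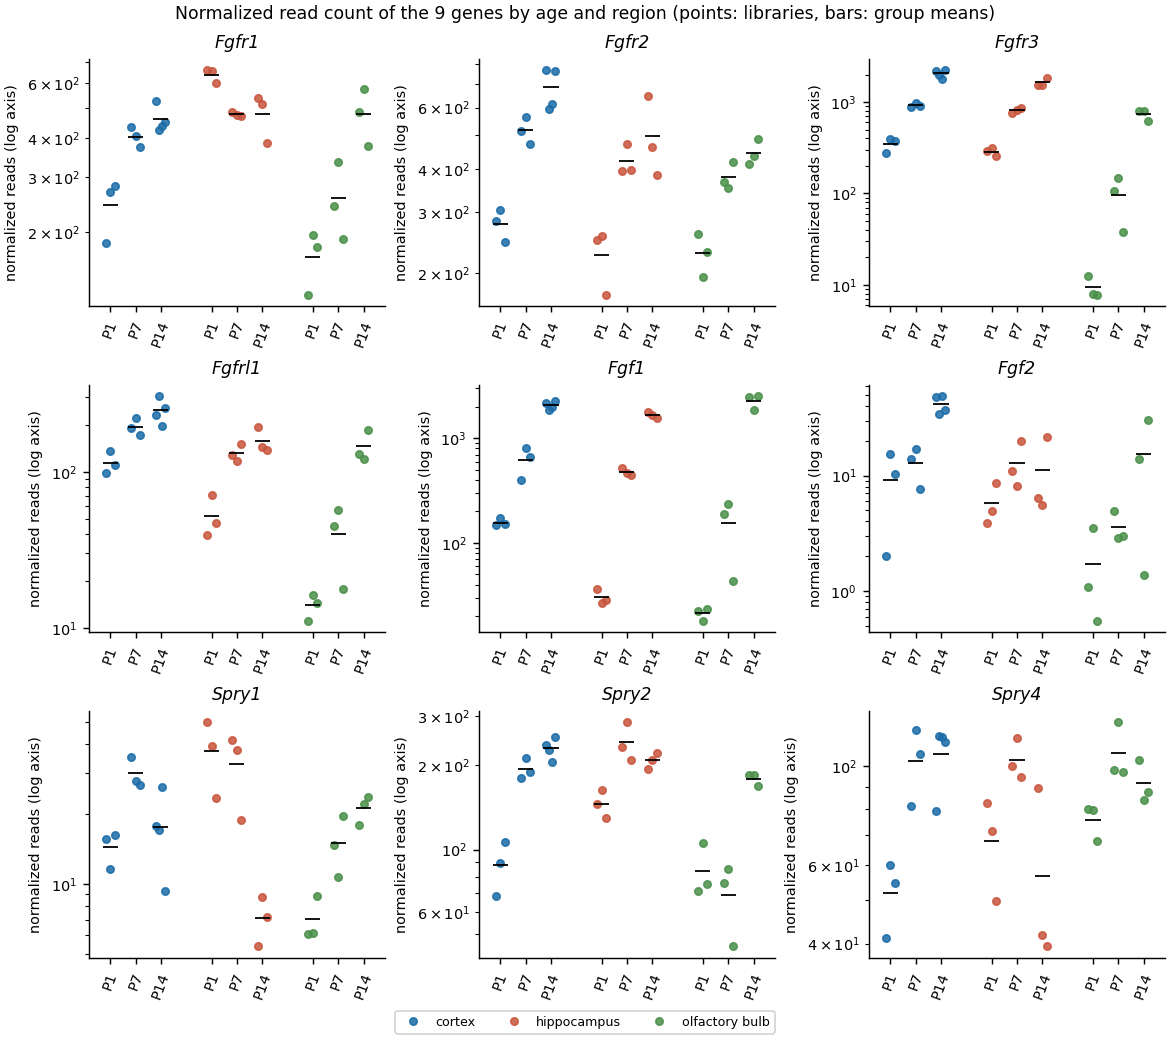
Normalized read count (log axis) of each of the 9 genes at P1, P7 and P14 in cortex, hippocampus and olfactory bulb. Points are libraries and bars are group means. Fgf1 and Fgfr3 climb in every region, Fgfr3 from 7.72 to 12.5 in olfactory bulb at P1, and Spry1 goes down in hippocampus and up in olfactory bulb.

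The libraries moved in cell type markers over the same ages. The summed level of 8 astrocyte markers went from 18158-24237 at P1 to 471983-532802 at P14 in cortex. In the hippocampus it went from 12110-13882 to 411589-446244 and in the bulb from 4592-6594 to 118267-134987, with none of the markers at 0. Of the 8, 7 rose in cortex and 8 in each other region. Summed levels of 10 neuronal markers went the other way, from 3713-4694 to 239-486, from 2261-2272 to 284-365, and from 4861-5216 to 622-1091. Mature oligodendrocyte markers rose (5 of 6 tested in cortex, 4 of 4 in each other region), as did microglial markers (6 of 6, 3 of 3 and 3 of 3). The summed mature oligodendrocyte markers went from 334-381 at P1 to 15195-26006 at P14 in cortex. In hippocampus that sum went from 72.3-91.3 to 1603-2310, and in olfactory bulb from 98.7-186 to 1919-2234. Endothelial markers rose in olfactory bulb (6 of 6), while 2 of 6 fell in hippocampus and none was called in cortex. Mural and fibroblast markers were also higher in olfactory bulb at P14 (summed 477-1010 against 117-250.2 at P1, 2 of 5 tested called higher), while 1 of 5 rose in cortex and 1 of 5 fell in hippocampus. Dividing-cell markers fell (4 of 4 in cortex, 4 of 5 in hippocampus, 1 of 4 in olfactory bulb). Oligodendrocyte precursor markers moved both ways in cortex (2 rose and 2 fell of 6) and hippocampus (2 rose and 1 fell), and 4 of 6 rose in olfactory bulb. At P1 in olfactory bulb 2 defining astrocyte markers were near 0, Gfap at 2.03 and S100b at 2.42, while Aqp4 stood at 128. In bulk samples, fewer cells of a type and less RNA per cell cannot be told apart, and the part of these shifts in the changes of the 9 genes was not tested. Library totals ran from 1773226 to 15008466 reads in the developmental tables and from 1859933 to 6352384 at P28. They were lower at P14 than at P1 in hippocampus (2539583 to 4248087 against 5098757 to 8986015). The same held in olfactory bulb (1773226 to 2669394 against 5473837 to 9062118). In cortex they overlapped (7838934 to 15008466 against 14070691 to 14513455). The part of depth in the values of low genes was not tested.

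Fgfr3 was the receptor that changed most. Its cortical values were 277, 394 and 375 normalized reads at P1, 881, 977 and 905 at P7, and 2204, 1994, 1801 and 2227 at P14. No library of an older age overlapped a younger one. In log2 terms P14 exceeded P1 by 2.57 ± 0.12 (SE; limma adjusted p = 1.02e-09). Hippocampal values were 291, 311 and 259.9, then 765, 817 and 868, then 1543, 1557 and 1817. These followed a similar course without overlap, with a change of 2.51 ± 0.13 (adjusted p = 3.38e-08). Olfactory bulb values were 12.5, 7.93 and 7.72 at P1, then 107, 147 and 38.0 at P7 and 805, 804 and 626 at P14. All 3 ages were again apart, although the third P7 library lay well below the other two. The change was 6.19 ± 0.42 (adjusted p = 7.98e-07), resting on 14 to 35 reads per library at P1. Both steps were called in every region: P7 against P1 gave 1.41 ± 0.13, 1.51 ± 0.13 and 3.07 ± 0.42, and P14 against P7 gave 1.15 ± 0.12, 1.00 ± 0.13 and 3.12 ± 0.42 in cortex, hippocampus and olfactory bulb.

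The third olfactory bulb library at P7 was also the lowest of its group for Fgf1 (43.3 against 187 and 237) and Fgfrl1 (17.8 against 44.9 and 56.5). Its group had summed astrocyte markers of 10081 to 18464, with the lowest sum in that library. Whether the shares of cell types set these values was not tested.

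Fgfrl1, the receptor without a kinase domain, rose in the 3 regions. In cortex it stood at 97.4, 135 and 109.8 at P1, 191, 219.6 and 171 at P7, and 229, 305, 197 and 255 at P14. All P14 libraries were above those of P1 but overlapped P7, and the change from P1 was 1.10 ± 0.16 (limma adjusted p = 5.06e-05). The step to P7 was called (0.77 ± 0.17), and the step after it was not (0.33 ± 0.16, adjusted p = 0.105), although it was under TMM and median-ratio scaling, in edgeR and DESeq2, and without P14 replicate 3 (up to 0.52). In hippocampus the values were 39.2, 70.8 and 46.7, then 127, 117 and 149, then 193, 143 and 138. The step to P7 was called there (1.35 ± 0.27, adjusted p = 0.00456), and the step from P7 to P14 was not (0.26 ± 0.27). In olfactory bulb the values were 11.1, 16.3 and 14.3, then 44.9, 56.5 and 17.8, then 129, 119.9 and 186, and the change over the whole interval was 3.28 ± 0.42 (adjusted p = 6.08e-05). By step, P14 against P7 was called in olfactory bulb (1.96 ± 0.42), and P7 against P1 missed the threshold (1.32 ± 0.42, adjusted p = 0.0702). The earlier step was called in edgeR, in DESeq2, with the 2 ages alone and without P7 replicate 3 (adjusted p down to 0.00362), and without that library the steps were 1.80 and 1.48.

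Fgfr2, a receptor gene known in glial cells, had the most even change across regions. Cortex gave 283, 304 and 246 at P1, 512, 564 and 470.4 at P7, and 768, 595, 613 and 766 at P14, a change of 1.30 ± 0.12 (limma adjusted p = 6.86e-07). Hippocampus gave 249, 256 and 173, then 393, 470.5 and 397, then 648, 463 and 383, a change of 1.12 ± 0.22 (adjusted p = 0.00111). Olfactory bulb gave 259, 195 and 231, then 366, 352 and 418, then 413, 434 and 487, a change of 0.97 ± 0.15 (adjusted p = 0.000316). At P14 every library was above every P1 library of its region. The P14 and P7 libraries overlapped in hippocampus and olfactory bulb. Most of the change had taken place by P7: 0.89 ± 0.13, 0.91 ± 0.22 and 0.73 ± 0.15, each called. The call at P7 was lost in hippocampus without P1 replicate 3, without P7 replicate 2 or without the trend (adjusted p up to 0.0587 over the alternatives), and in olfactory bulb without P1 replicate 2 (adjusted p = 0.0657). From P7 to P14, Fgfr2 passed the test in cortex only (0.40 ± 0.12, adjusted p = 0.0141), and without cortex P7 replicate 3 it did not (adjusted p = 0.0622).

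Fgfr1 differed in direction between regions. In cortex it measured 184, 268 and 280.5 at P1, 432, 404 and 374 at P7, and 524, 423, 438 and 449 at P14. All cortical P7 and P14 libraries were above those of P1, and P14 exceeded P1 by 0.92 ± 0.14 (limma adjusted p = 6.05e-05). In olfactory bulb it measured 126, 196 and 179.8, then 243, 335 and 190.4, then 485, 572 and 378. The P14 libraries did not overlap the younger ones, with a change of 1.52 ± 0.25 (adjusted p = 0.000377). In hippocampus, by contrast, the P1 libraries were the highest, at 658, 655 and 598, against 484, 472 and 470.2 at P7 and 536, 513 and 385 at P14. Fgfr1 fell there by 0.43 ± 0.15 on the log2 scale (adjusted p = 0.0296), a call kept under 12 of 20 alternatives (changes of -0.63 to -0.28, adjusted p up to 0.0917), and lost without P1 replicate 1, P1 replicate 2 or P14 replicate 3, with median-ratio scaling, without the trend, with the 2 ages alone, and in edgeR and DESeq2.

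Counted per kb of exon, which allows a rough comparison of genes, the makeup of the receptor pool changed with age. The length joins all annotated exons of a gene, whichever transcripts were made, so the ranking of genes depends on the annotation. Fgfr3 made up 34.3% ± 2.01 (SD, n = 3) of the summed per-kb level of the 4 member receptors and Fgfr4 in cortex at P1, 44.5% ± 1.82 (n = 3) at P7 and 58.8% ± 1.2 (n = 4) at P14. In hippocampus its share went from 27.6% ± 0.390 to 45.6% ± 0.931 and 60.0% ± 6.65 (n = 3 each). In olfactory bulb it went from 2.91% ± 0.957 to 14.2% ± 6.0 and 41.9% ± 4.77 (n = 3 each). The share of Fgfr3 thus ran without overlap between ages in cortex, hippocampus and olfactory bulb. Fgfr1 had the largest share in hippocampus at P1 (44.5%, 19.3% at P7 and 12.7% at P14), and Fgfr2 in olfactory bulb at P1 (48.8%, 42.2% at P7 and 17.4% at P14). The fourth receptor gene, Fgfr4, stayed at 0.272% or less of the pool in every developmental library. Shares are of RNA in the whole library, and no p-value was computed on them.

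**Figure D2:**
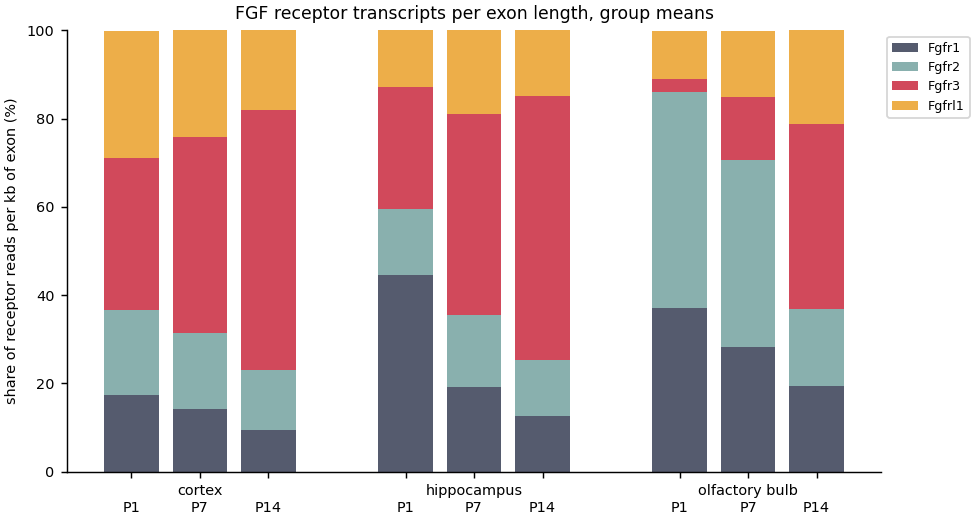
Stacked bars of the share (%) of each FGF receptor gene in the summed receptor reads per kb of exon, as group means at P1, P7 and P14 in each region. At P14 the Fgfr3 segment reaches 58.8% (cortex), 60.0% (hippocampus) and 41.9% (olfactory bulb).

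Fgf1, a ligand that binds all FGF receptors, was the most changed of the 9 genes. Cortical libraries held 147, 172 and 151 normalized reads at P1, 402, 811 and 659 at P7, and 2177, 1871, 1978 and 2282 at P14. Hippocampal libraries held 36.0, 26.7 and 28.3, then 517, 464 and 448, then 1789.6, 1683 and 1557. Olfactory bulb libraries held 22.6, 18.1 and 23.2, then 187, 237 and 43.3, then 2475, 1883 and 2532. In each region the 3 ages were fully separated. From P1 to P14 the log2 changes were 3.72 ± 0.18 in cortex (limma adjusted p = 1.3e-09), 5.75 ± 0.16 in hippocampus (8.91e-10) and 6.68 ± 0.49 in olfactory bulb (1.23e-06). The timing differed in the values: hippocampus had its larger step before P7 (3.94 ± 0.16, then 1.81 ± 0.16), olfactory bulb after P7 (2.5 ± 0.49, then 4.18 ± 0.49), and cortex had steps of 1.93 ± 0.19 and 1.79 ± 0.18. In olfactory bulb the gap between the steps rests on 1 library: without P7 replicate 3 they were 3.26 and 3.43. All 6 steps were called. Differences between the steps of a region were not tested.

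Fgf2, the other ligand, was a low gene throughout. In cortex it read 1.99, 15.4 and 10.3 at P1, 13.8, 17.0 and 7.70 at P7, and 48.0, 34.0, 48.9 and 36.9 at P14. All P14 libraries were above the younger ones, which overlapped each other. The change was 2.37 ± 0.50 from P1 (limma adjusted p = 0.000928) and 1.68 ± 0.50 from P7 (adjusted p = 0.0133, and 0.0653 without cortex P7 replicate 3). In the developmental tables of hippocampus (3.92 to 21.5) and olfactory bulb (0.552 to 30.5) Fgf2 fell below the minimum mean and was not tested there. With the filter lifted, P14 against P1 gave 0.66 ± 0.69 and 2.09 ± 0.87, with adjusted p of 0.493 and 0.0779. Olfactory bulb P14 libraries ranged from 1 to 22 Fgf2 reads. Fgf2 overlaps Nudt6, a Nudix hydrolase gene on the opposite strand, by 640 of the 6782 exon bases of Fgf2, and whether reads were counted by strand is not given in the sources used here. Reads of the shared stretch therefore cannot be told apart. Nudt6 itself rose in cortex (15.8 ± 3.59 to 67.1 ± 9.87, SD; 2.03 ± 0.24, SE) and in olfactory bulb (5.39 ± 0.116 to 38.2 ± 14.1; 2.56 ± 0.42), and was not called in hippocampus (1.37 ± 0.59, adjusted p = 0.0716).

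Sprouty proteins restrain the RAS to ERK route downstream of receptor tyrosine kinases. Spry2 was the most abundant of the family per kb of exon at P14, at 110.4 ± 9.54 in cortex (SD, n = 4), 99.7 ± 6.21 in hippocampus and 85.9 ± 4.64 in olfactory bulb (n = 3 each). Spry4 followed at 22.4 ± 3.80, 12 ± 5.90 and 19.3 ± 2.16, and Spry1 at 6.05 ± 2.37, 2.45 ± 0.593 and 7.29 ± 1.02. Spry2 was thus above Spry4, and Spry4 above Spry1, by more than the SDs in each region.

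Spry2 normalized reads in cortex were 68.2, 89.9 and 106 at P1, 181, 213 and 189.9 at P7, and 236, 228, 205 and 253 at P14. Both older ages were above all P1 libraries, and the change to P14 was 1.39 ± 0.15 (limma adjusted p = 2.79e-06), of which 1.15 ± 0.16 came before P7. In hippocampus the libraries had 145, 163 and 129.6 at P1, 232, 286 and 208 at P7, and 195, 209 and 220.4 at P14. Spry2 rose there by 0.51 ± 0.18 to P14 (adjusted p = 0.0363), a call kept under 13 of 20 alternatives and lost without P1 replicate 1, P1 replicate 3, P7 replicate 1 or P14 replicate 3, with quantile normalization, without the trend and with the 2 ages alone. Its P7 step in hippocampus (0.72 ± 0.18, adjusted p = 0.0176) was lost without P1 replicate 1, P1 replicate 3, P7 replicate 1 or P7 replicate 2. In olfactory bulb it had 71.3, 105 and 75.6, then 76.2, 85.1 and 45.1, then 185, 185 and 168. The P1 and P7 libraries overlapped, and the called step lay after P7 (1.42 ± 0.27, adjusted p = 0.00137), for a change of 1.10 ± 0.27 from P1 (adjusted p = 0.00468).

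Spry1 was a low gene whose direction differed between hippocampus and olfactory bulb. Hippocampus gave 49.9, 39.2 and 23.3 at P1, 41.7, 37.5 and 18.9 at P7, and 5.37, 8.82 and 7.17 at P14, where it rested on 4 to 8 reads per library. All P14 libraries were below all younger ones. Spry1 fell by 2.20 ± 0.50 on the log2 scale from P1 (limma adjusted p = 0.00325) and by 2.00 ± 0.50 from P7 (adjusted p = 0.0108). The second of these calls was lost without P7 replicate 1 or P7 replicate 2 and with quantile normalization, and over the alternatives the change from P7 ranged from -2.34 to -0.94. Olfactory bulb gave 6.09, 6.16 and 8.82, then 14.7, 10.7 and 19.6, then 17.9, 22.1 and 23.6, with a change of 1.47 ± 0.43 from P1 to P14 (adjusted p = 0.0124). The P14 libraries there were above those of P1 and overlapped those of P7. In cortex Spry1 was highest at P7 (35.2, 27.8 and 26.7, against 15.6, 11.6 and 16.2 at P1 and 17.8, 17.0, 26.2 and 9.35 at P14). Its P7 step of 1.00 ± 0.37 was close to the threshold (adjusted p = 0.0491) and was kept under 10 of 20 alternatives: leaving out any P1 or P7 library, or P14 replicate 1 or 2, ended it, as did a pseudocount of 0.1 or no filter (adjusted p up to 0.151). P14 against P1 gave 0.20 ± 0.34 in cortex (adjusted p = 0.634).

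Spry4 rose in cortex, from 41.2, 60.2 and 54.7 at P1 to 81.4, 121 and 106 at P7, and P14 libraries held 79.4, 117, 116 and 113. The P7 and P14 libraries were all above P1, and the change to P14 was 1.02 ± 0.20 (limma adjusted p = 0.000579). Hippocampal libraries had 82.6, 71.7 and 49.8, then 100.2, 116 and 94.6, then 89.2, 41.9 and 39.4, with overlap between P1 and P14 (-0.33 ± 0.35, adjusted p = 0.465). Olfactory bulb libraries had 67.8 to 80.3, then 97.3 to 126, then 84.1 to 103, a change of 0.27 ± 0.21 from P1 to P14 (adjusted p = 0.303).

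**Figure D3:**
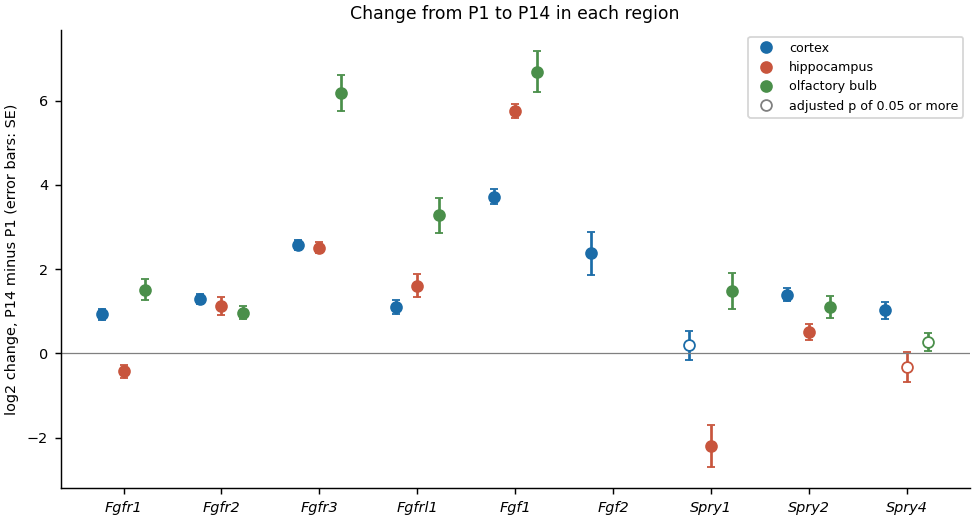
Log2 change from P1 to P14 (y axis, with SE) of each gene (x axis) in cortex, hippocampus and olfactory bulb. Filled points have a limma adjusted p under 0.05, and Fgf2 is drawn for cortex alone since it was below the filter elsewhere. Fgf1 and Fgfr3 lie highest, and Fgfr1 and Spry1 lie below 0 in hippocampus and above 0 in olfactory bulb.

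By step, cortex had 8 of 9 genes called between P1 and P7, all higher, beside 33.7% of all genes (15.6% higher and 18.1% lower). Hippocampus had 5 of 8, all higher, beside 18.1% (11.2% higher and 6.92% lower), and the bulb 3 of 8, all higher, beside 10.6% (7.59% higher and 2.98% lower). Between P7 and P14, cortex had 4 of 9 called, all higher, beside 49.8% (18.6% higher and 31.3% lower). Hippocampus had 2 higher and 1 lower of 8, beside 30.1% (12.5% higher and 17.7% lower), and the bulb 5 of 8, all higher, beside 47.0% (20.4% higher and 26.6% lower). Within P7 to P14 the only member called lower was Spry1 in hippocampus.

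Regions were compared by testing the difference between their P1 to P14 changes in one fit. A constant scale difference between tables cancels there for well-expressed genes. For low values, as of Spry1 and of Fgfr3 in olfactory bulb at P1, it cancels only in part, since 1 was added before the log. Of 8 genes, 5 differed between hippocampus and cortex, 1 with a higher and 4 with a lower change in hippocampus, beside 14.2% of all genes tested (10% higher and 4.13% lower). The bulb differed from cortex in 3, all higher, beside 23.5% (17.5% higher and 5.94% lower), and from hippocampus in 4, all higher, beside 18.2% (11.9% higher and 6.25% lower). The change of Fgfr3 in olfactory bulb exceeded that in cortex by 3.62 ± 0.37 (limma adjusted p = 3.09e-08) and that in hippocampus by 3.68 ± 0.39 (1.49e-07), and Fgfrl1 behaved likewise, by 2.18 ± 0.41 (0.000243) and 1.67 ± 0.43 (0.00673). Fgf1 changed more in hippocampus (2.03 ± 0.47, 0.00381) and in olfactory bulb (2.96 ± 0.47, 2.61e-05) than in cortex. Fgfr1 and Spry1 set hippocampus apart: the Fgfr1 change there was lower than in cortex (-1.35 ± 0.27, 0.000835), and the olfactory bulb change was above it by 1.94 ± 0.28 (1.15e-05). For Spry1 the same differences were -2.40 ± 0.57 (0.00433) and 3.68 ± 0.58 (5.14e-05). Spry2 (-0.88 ± 0.28, 0.0365) and Spry4 (-1.35 ± 0.37, 0.0126) also changed less in hippocampus than in cortex. The Spry2 difference was kept under 26 of 34 alternatives and lost on leaving out cortex P1 replicate 1 or 2, cortex P14 replicate 1, 2 or 4, hippocampus P1 replicate 1 or 2, or hippocampus P14 replicate 1 (adjusted p up to 0.118). Fgfr2 gave -0.17 ± 0.24, -0.33 ± 0.24 and -0.16 ± 0.24 in the 3 contrasts, none called.

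Upstream sequence is shown for the members that rose in all 3 regions and for Spry1, whose direction differed between regions, as far as the RefSeq promoter table (GRCm38.p6, the assembly of mm10) held them. It matched 6 of the 9 genes with 7 windows, each of 300 bases from 250 before to 50 after an annotated start. Fgfr1, Fgf1 and Spry4 were not matched. Matches to 5 short motifs, searched on both strands, are in capitals: the ETS core CCGGAA, the NFI half-site TTGGCA, the SOX motif ACAATG, the AP-1 motif TGANTCA and the GC box GGGCGG. They occur in 14.9%, 14.1%, 12.6%, 7.81% and 35.7% of the 32851 windows in the table. The lines run 5′ to 3′ on the strand of the gene.
Fgfr3, first start, chr5:33721474-33721773, plus strand: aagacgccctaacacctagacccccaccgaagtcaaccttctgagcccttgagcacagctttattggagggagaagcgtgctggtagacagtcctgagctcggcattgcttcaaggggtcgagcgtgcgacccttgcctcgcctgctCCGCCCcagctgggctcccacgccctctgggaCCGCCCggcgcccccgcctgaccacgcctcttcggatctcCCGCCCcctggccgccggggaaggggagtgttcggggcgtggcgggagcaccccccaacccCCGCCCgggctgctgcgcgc
Fgfr3, second start, chr5:33722056-33722355, plus strand: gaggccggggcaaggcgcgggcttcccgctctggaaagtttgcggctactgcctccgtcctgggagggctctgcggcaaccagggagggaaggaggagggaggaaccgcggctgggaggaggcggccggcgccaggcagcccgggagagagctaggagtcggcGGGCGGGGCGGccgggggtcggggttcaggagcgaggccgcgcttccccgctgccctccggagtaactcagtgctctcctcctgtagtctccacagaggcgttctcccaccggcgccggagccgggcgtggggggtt
Fgfrl1, chr5:108693979-108694278, plus strand: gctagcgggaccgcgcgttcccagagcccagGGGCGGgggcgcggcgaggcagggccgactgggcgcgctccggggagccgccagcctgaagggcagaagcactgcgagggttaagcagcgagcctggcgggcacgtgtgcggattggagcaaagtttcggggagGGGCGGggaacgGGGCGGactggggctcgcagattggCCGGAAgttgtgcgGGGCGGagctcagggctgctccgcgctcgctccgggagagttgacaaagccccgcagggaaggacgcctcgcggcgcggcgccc
Fgfr2, chr7:130266759-130267058, minus strand: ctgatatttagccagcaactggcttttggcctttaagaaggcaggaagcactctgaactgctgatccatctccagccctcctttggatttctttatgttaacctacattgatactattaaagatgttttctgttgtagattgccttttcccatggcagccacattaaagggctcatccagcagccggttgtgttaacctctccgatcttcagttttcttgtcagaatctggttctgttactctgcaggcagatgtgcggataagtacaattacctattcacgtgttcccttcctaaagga
Spry2, chr14:105896770-105897069, minus strand: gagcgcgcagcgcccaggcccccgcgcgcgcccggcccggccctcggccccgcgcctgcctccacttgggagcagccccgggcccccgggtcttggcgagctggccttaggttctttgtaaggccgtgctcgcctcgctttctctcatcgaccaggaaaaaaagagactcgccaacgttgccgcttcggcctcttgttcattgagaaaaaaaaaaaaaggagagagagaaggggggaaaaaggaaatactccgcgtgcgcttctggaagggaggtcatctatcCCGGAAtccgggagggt
Spry1, chr3:37639697-37639996, plus strand: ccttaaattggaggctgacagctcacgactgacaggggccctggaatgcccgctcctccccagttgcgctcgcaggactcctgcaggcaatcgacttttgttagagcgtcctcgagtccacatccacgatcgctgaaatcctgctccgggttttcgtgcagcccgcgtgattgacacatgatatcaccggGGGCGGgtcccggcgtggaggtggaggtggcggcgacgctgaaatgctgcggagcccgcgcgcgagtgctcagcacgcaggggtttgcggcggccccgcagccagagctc
The Fgfr3 windows held 4 GC boxes and 2 overlapping GC boxes, and no match to the other motifs. Fgfrl1 held 4 GC boxes and 1 ETS core, which starts 48 bases before the annotated start. Spry2 held 1 ETS core and Spry1 1 GC box. The Fgfr2 window held none of the 5 motifs and was also the poorest in G and C, at 43.7%, beside 69.7% and 73.0% for Fgfr3, 73.7% for Fgfrl1, 62.7% for Spry2, 64.3% for Spry1 and a median of 52.7% over all windows. A match is a description of the letters only.

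The gene models place Fgfr3 at chr5:33721674-33737068 and Fgfrl1 at chr5:108692382-108706924, both on the plus strand, Fgfr2 at chr7:130162451-133123350 (minus), Fgfr1 at chr8:25513654-25575718 (plus), Fgf2 at chr3:37348346-37410108 (plus), Spry1 at chr3:37639947-37644598 (plus) and Spry2 at chr14:105891947-105896819 (minus; GENCODE M21, GRCm38). All are protein-coding.

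The wider FGF route was followed in 8 lists with 95 genes, of which 71 passed the filter in each region. From P1 to P14, 14 rose and 33 fell in cortex, 19 rose and 22 fell in hippocampus, and 29 rose and 20 fell in olfactory bulb. Over all genes tested, cortex had 24.0% higher and 40.3% lower, the hippocampal shares were 21.0% and 28.5% and those of the bulb 24.8% and 31.4%, and the counts of each list stand beside these shares. The median log2 changes of the 71 genes were -0.34, -0.06 and 0.52, beside -0.27, -0.29 and -0.24 for all genes.

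Other feedback inhibitors changed in both directions. Of 8 tested, 3 rose and 2 fell in cortex, 2 rose and 2 fell in hippocampus, and 3 rose and 3 fell in olfactory bulb, with list medians of 0.14, 0.02 and 0.47. Spred1, an inhibitor of the RAS to ERK route, rose everywhere: its means went from 1034 ± 191 to 2382 ± 117 (SD) in cortex, 798 ± 71.1 to 3278 ± 166 in hippocampal and 667 ± 43.7 to 2290.2 ± 203 in bulb astrocytes, changes of 1.22 ± 0.12, 2.04 ± 0.12 and 1.78 ± 0.13 (SE). Dusp6, the phosphatase that removes phosphate from ERK, rose from 32.9 ± 8.16 to 102 ± 14.4, from 63.2 ± 12.6 to 130.4 ± 19.0 and from 31.7 ± 5.44 to 74.4 ± 14.4, changes of 1.62 ± 0.20, 1.04 ± 0.24 and 1.2 ± 0.27. Rasa1, a RAS GTPase-activating protein, fell in cortex (-1.36 ± 0.10) and hippocampus (-1.13 ± 0.20). Dusp4, another phosphatase of MAP kinases, went from 51.6 to 6.40 in cortex (fell by 2.81 ± 0.38), from 236 to 9.08 in hippocampus (fell by 4.65 ± 0.45) and from 864 to 42.3 in olfactory bulb (fell by 4.36 ± 0.33). The limma adjusted p-values of these changes were at most 0.00363.

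The ERK response genes did not move together either. Etv5, an ETS factor, rose by 0.38 ± 0.10 in cortex (401 ± 48.4 to 521 ± 37.8, SD), by 1.21 ± 0.17 in hippocampal (268 ± 32.3 to 625 ± 126) and by 1.71 ± 0.17 in bulb astrocytes (181 ± 30.9 to 588 ± 20.4), with limma adjusted p of 0.00458, 0.000138 and 9.7e-06. Its relative Etv4 rose in olfactory bulb (6.71 ± 0.306 to 55.9 ± 27.9; 2.72 ± 0.48, adjusted p = 0.000647) and gave 0.10 ± 0.17 in cortex and 0.59 ± 0.58 in hippocampus, neither called. The difference between olfactory bulb and cortex was itself called for Etv4 (2.62 ± 0.63, adjusted p = 0.00258) and for Etv5 (1.33 ± 0.20, adjusted p = 1.58e-05). The immediate early gene Fos fell in cortex (-1.96 ± 0.54) and hippocampus (-4.52 ± 0.51), where Egr1, another immediate early transcription factor, also fell (-3.80 ± 0.38). In olfactory bulb Fos gave -0.52 ± 0.70, which was not called. Of the list, 1 of 7 tested rose and 4 fell in cortex, 1 rose and 3 fell of 7 in hippocampus, and 2 rose and 1 fell of 6 in olfactory bulb, with list medians of -0.36, 0.39 and 0.41.

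**Figure D4:**
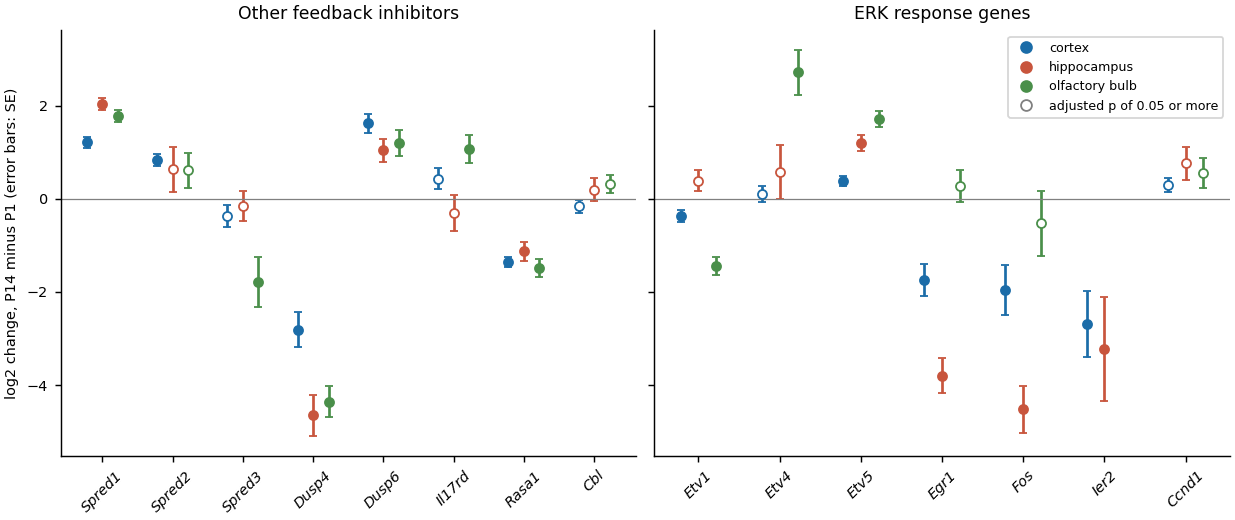
Log2 change from P1 to P14 (y axis, with SE) of other feedback inhibitors (left) and ERK response genes (right) in the 3 regions. Filled points have a limma adjusted p under 0.05. Spred1, Dusp6 and Etv5 lie above 0 in all 3 regions, and Dusp4 below it.

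Heparan sulfate proteins and enzymes, which FGFs need for tight receptor binding, changed in both directions, in cortex at shares near those of all genes. Of 19 tested in cortex 4 rose and 8 fell, of 18 in hippocampus 7 rose and 5 fell, and of 19 in olfactory bulb 10 rose and 4 fell, with list medians of -0.33, 0.32 and 0.60. The syndecan Sdc4 rose in cortex, hippocampus and bulb by 4.21 ± 0.19, 5.78 ± 0.23 and 5.89 ± 0.35, and the glypican Gpc5 by 4.19 ± 0.12, 7.49 ± 0.26 and 4.80 ± 0.31. Gpc2, a glypican known from neurons and neural progenitors, was at 0 in all hippocampal P14 libraries after 75.5 ± 16.9 at P1 (SD, n = 3), and in olfactory bulb it fell by 3.53 ± 0.71. The sulfotransferase Hs6st2 fell in cortex (-5.14 ± 0.46) and hippocampus (-4.15 ± 0.75). Among co-receptors, 1 rose and 2 fell of 4 tested in cortex, 2 rose and 3 fell of 5 in hippocampus, and 1 rose and 3 fell of 4 in olfactory bulb (list medians -1.18, -1.84 and -1.37). Flrt3, an adhesion protein that binds FGF receptors, fell in the 3 regions (-4.03 ± 0.37, -5.13 ± 0.45 and -3.42 ± 0.56). Kl, a co-receptor gene of the choroid plexus, rose in hippocampus (1.07 ± 1.85 to 132 ± 101, SD; 6.09 ± 0.79, SE). Summed choroid plexus and ependymal markers ran from 41.4 to 79.4 at P1 and from 3941 to 8015 at P14 in hippocampus, and their part in the Kl result was not tested.

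Signal transducers inside the cell also changed in both directions, in hippocampus and olfactory bulb at shares near those of all genes. Those shares were 21.0% higher and 28.5% lower in hippocampus, and 24.8% and 31.4% in olfactory bulb. Of 18 tested signal transducers, 2 rose and 9 fell in cortex, 4 rose and 5 fell in hippocampus, and 5 rose and 4 fell in olfactory bulb, with list medians of -0.35, -0.06 and 0.34. Map2k1, which encodes the ERK kinase MEK1, rose in each (1.21 ± 0.15, 1.11 ± 0.37 and 1.79 ± 0.40). Of 16 other FGF ligands, none passed the filter in cortex or hippocampus, and Fgf15 did so in olfactory bulb. Fgf15 stood at 49.5 ± 11.2 there at P1 (SD, n = 3) and at 0 in the 3 P14 libraries. Fgf9, another ligand known from brain, stayed below the filter, with P1 and P14 means of 8.19 and 0.189 (cortex), 0.324 and 2.94 (hippocampus), and 3.41 and 2.31 (bulb). Of the 4 intracellular FGF homologous factors, which act at sodium channels, 2 fell in cortex, 1 rose and 1 fell in hippocampus, and 2 rose and 1 fell in olfactory bulb (list medians -0.47, -0.15 and 0.77). Among 11 tested receptor tyrosine kinases of other families, 3 rose and 6 fell in cortex, 2 rose and 3 fell in hippocampus, and 6 rose and 3 fell in olfactory bulb, with list medians of -0.34, -1.11 and 1.94. Ntrk2, the BDNF receptor gene, rose by 2.38 ± 0.09 in cortex and by 4.41 ± 0.15 in hippocampus. The largest called rises of this list in olfactory bulb were Flt1 (4.95 ± 0.66) and Kdr (4.70 ± 0.78). Both are also among the endothelial markers that rose there, and the part of endothelial cells in this list was not tested.

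Likeness was measured as the root mean square difference between 2 genes over 6 log2 changes (P7 and P14 against P1 in each region), among 10442 genes. Nearest to Fgfr3 were Itih3 (0.39), Gabbr2 (0.46), which encodes the partner subunit of Gabbr1 in the GABAB receptor, and Itpr2 (0.47), an intracellular calcium channel gene. Nearest to Fgf1 were Sdc4 (0.41), Epas1 (0.58) and Kcnj16 (0.61), a potassium channel gene. Fgfrl1 was nearest to Rab31 (0.18), Fgfr2 to Gaa (0.18), Fgfr1 to Athl1 (0.24), Spry1 to Lpar6 (0.35) and Spry2 to Cox10 (0.22). Among the members, Fgfr2 and Spry2 were closest (0.52), and Fgf1 and Spry1 farthest apart (4.53). These are descriptions over 9 group means that share their P1 libraries, and no test was made.

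At P28 the targeted gene Gabbr1 was lower in every cKO library than in every control of its region: 927 to 1930.1 in controls against 89.8 to 211 in cKO in cortex, 779.8 and 824 against 152 to 379.9 in hippocampus, and 184 to 318 against 63.6 to 99.5 in olfactory bulb. Its log2 change was -3.45 ± 0.29 in cortex (limma adjusted p = 4.4e-05), -1.84 ± 0.39 in hippocampus (unadjusted p = 0.000937, adjusted p = 0.936) and -1.48 ± 0.33 in olfactory bulb (unadjusted p = 0.00106, adjusted p = 0.877). Gabbr1 was the only gene called in cortex (also 1 gene in edgeR and in DESeq2, and 0 in limma without the trend), and limma called none in the other regions. A pair of P28 libraries stood apart in the share of reads on the ribosomal RNA gene Rn45s. They were hippocampus cKO replicate 2 (0.594%) and olfactory bulb control replicate 2 (0.476%), against 27.0% to 38.0% in the other P28 libraries. Values without them are given beside member results that rest on them.

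None of the 9 genes was called between control and cKO at P28 in any region. In cortex 0 of 8 tested genes passed (limma), beside 0.00982% of all genes, with 0 at an unadjusted p under 0.05. In hippocampus 0 of 9 passed, beside 0% of 11639 genes, with 2 at an unadjusted p under 0.05 (296 of all genes; edgeR called 0 genes and DESeq2 1). In olfactory bulb 0 of 9 passed, beside 0% of 11539 genes, with 0 at an unadjusted p under 0.05 (349 of all genes; edgeR called 0 genes and DESeq2 22). Median changes of the members were 0.04, 0.05 and -0.05. A count of 0 does not show that the levels were alike.

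The hippocampal receptors Fgfr1, Fgfr2 and Fgfr3 were the only members without overlap between the genotypes at P28. Fgfr1 stood at 307 and 336 in controls and at 448, 769.9, 481 and 529.8 in cKO libraries 1 to 4. Fgfr3 stood at 654 and 1028 in controls and at 1273, 1125, 1292 and 1551 in cKO. Fgfr2 stood at 501 and 382 against 615, 520.0, 718 and 594. For these 3 genes each cKO library was above both controls, and ratios of means were 1.73, 1.56 and 1.39. The other 6 genes overlapped in hippocampus. Only 2 controls were available, and the share of all genes that separate in this way was not counted. The separation of these 3 members therefore stands without a background. The log2 differences were 0.76 ± 0.30 for Fgfr1 (limma unadjusted p = 0.0302, adjusted p = 0.936), 0.67 ± 0.29 for Fgfr3 (0.0432, 0.936) and 0.47 ± 0.27 for Fgfr2 (0.112, 0.936), so none held after adjustment. Without cKO replicate 2, the library apart in Rn45s, they were 0.59 for Fgfr1, 0.74 for Fgfr3 and 0.55 for Fgfr2, each with an adjusted p of 0.835. Single controls also moved them: without control replicate 1 they were 0.69 for Fgfr1, 0.34 for Fgfr3 and 0.67 for Fgfr2, and without control replicate 2 they were 0.83, 0.99 and 0.28. Hippocampal P28 libraries also differed in other cells: summed astrocyte markers were 152603-165921 in controls and 116645-361640 in cKO, and summed choroid plexus and ependymal markers were 65349-135484 in controls and 10528-124951 in cKO. Summed microglial markers did not overlap and were higher in cKO, as the 3 receptors were, at 45.4-52.4 in controls and 59.1-526.7 in cKO. Their part in the receptor values was not tested.

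Olfactory bulb Fgfr3 at P28 was 766, 266 and 854 in controls and 995, 827 and 1334 in cKO, a difference of 0.89 ± 0.40 (limma unadjusted p = 0.0512, adjusted p = 0.877). The lowest control, replicate 2, is the library apart in Rn45s, and without it the difference was 0.35 (adjusted p = 0.986). The same library held 109 normalized reads of Spry1, against 10.3 to 27.5 in the other 5, and the Spry1 difference went from -0.49 to 0.55 without it. All 9 genes overlapped between the genotypes in olfactory bulb.

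In cortex all 9 genes overlapped as well. Fgfr3 was 1222, 1336, 1664 and 1746 in controls and 1622, 1632, 1951 and 1721 in cKO (0.23 ± 0.18, limma unadjusted p = 0.218), and Spry4 was 44.4, 43.2, 72.3 and 90.6 against 69.6, 79.7, 124 and 84.4 (0.54 ± 0.32, unadjusted p = 0.114). The libraries without a treatment label and those labelled with tamoxifen gave different values: within the former, cKO minus control was 0.44 for Fgfr3 and 0.99 for Spry4, with no overlap, and within the latter it was 0.01 and 0.06. For the targeted gene Gabbr1, cKO minus control was -4.11 in the libraries without the label and -2.29 in those with it. Its controls held 1746 to 1930 without the label and 927 to 1159 with it. The cKO values were 89.8 to 134 without the label and 211 with it. The labelled libraries hold only 1 cKO sample. All cortical P28 libraries without the label came from an earlier deposit round than those with it. Each also had a higher share of Rn45s reads than every labelled one. Treatment, deposit round and Rn45s share therefore cannot be told apart in these values. Whether a missing label means that no tamoxifen was given is not known. Fgf1 levels also ran by this label, from 1458 to 1928 in controls without the label against 782 to 1117 in controls with it, while the genotype difference was -0.19 and -0.27 within the label classes and 0.00 ± 0.30 overall. Spry1 was below the filter in cortex at P28 (0 to 21.9 normalized reads). With the filter lifted it gave 0.62 ± 0.99.

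**Figure D5:**
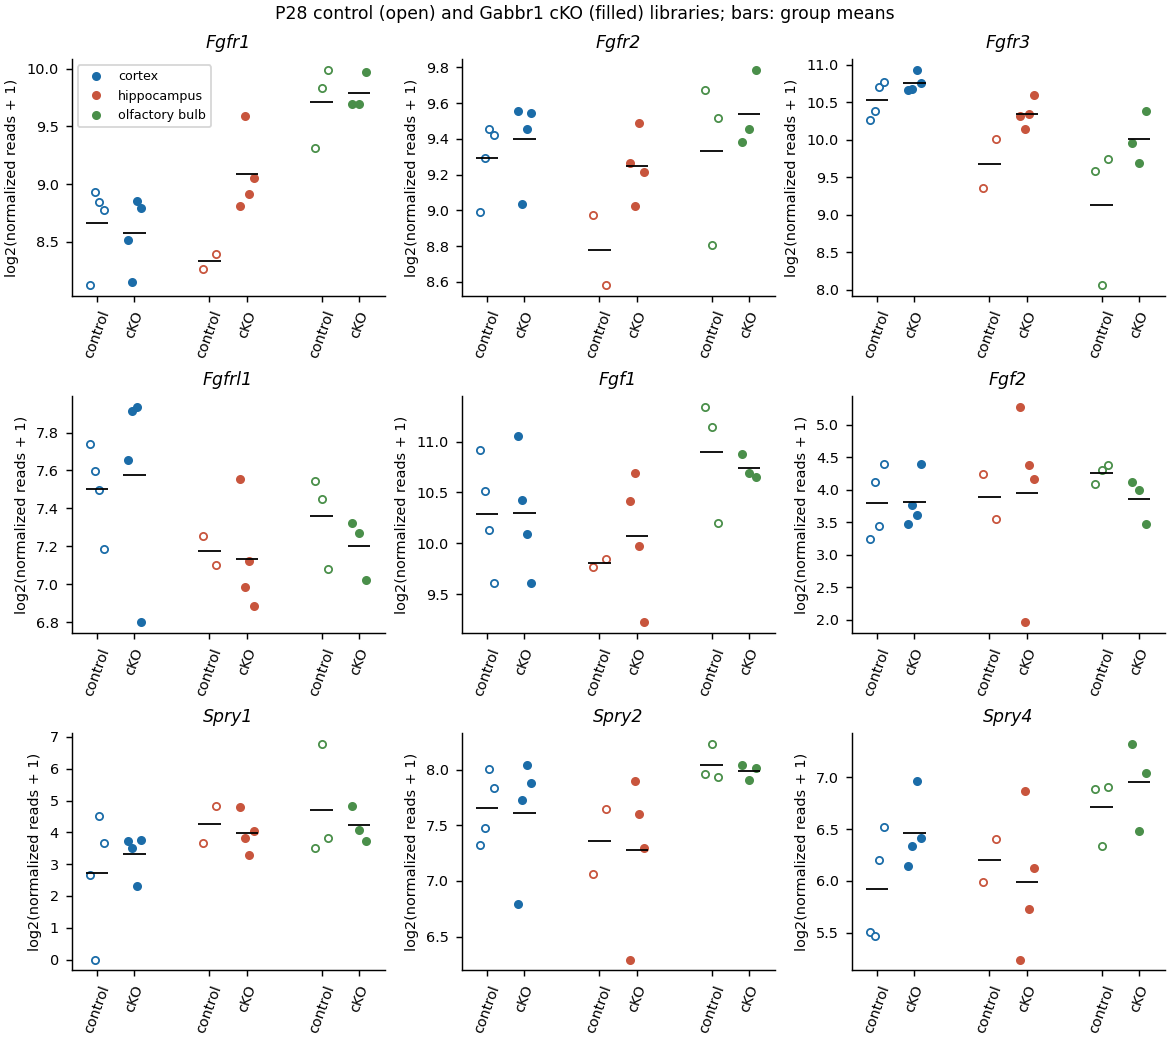
Values of the 9 genes at P28 as log2(normalized reads + 1) in control (open) and Gabbr1 cKO (filled) libraries of the 3 regions. Points are libraries and bars are group means. Fgfr1, Fgfr2 and Fgfr3 are above both controls in all 4 hippocampal cKO libraries, and every other pair of groups overlaps. None of these differences was called, and the share of all genes that separate in this way was not counted.

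The wider route gave no call at P28 either: 0 of 65, 69 and 71 tested genes in cortex, hippocampus and olfactory bulb (limma). Dusp6 had the smallest unadjusted p of the always-named route genes, 0.00278 in olfactory bulb, with a difference of 1.30 ± 0.34 (adjusted p = 0.877). Its difference without the olfactory bulb control apart in Rn45s is not given here. Etv4 and Etv5 differed by 0.58 ± 0.39 and -0.16 ± 0.21 in cortex, by 0.01 ± 0.64 and 0.18 ± 0.36 in hippocampal, and by 0.25 ± 0.52 and 0.42 ± 0.26 in bulb astrocytes, none called. The per-kb share of Fgfr3 among the receptors was 55.0% in control and 57.8% in cKO cortex, and 47.5% and 52.2% in hippocampus, with overlap. In olfactory bulb it was 15.8% to 34.9% in the 3 controls and 35.7% to 44.4% in the 3 cKO libraries, without overlap, and the lowest control was the library apart in Rn45s. No p-value was computed on these shares.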

How the data were processed

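RNA-seq libraries were prepared from total RNA with a low-input kit, per the labels' protocols. The submitters' processing notes name STAR 2.5.0a, DESeq2 1.20.0, FastQC, MultiQC and the mm10 genome. The counter, annotation and strand setting are not given in the sources used here. The deposited values are a normalized signal, read counts divided by 1 factor per library by the authors, since 100% of values in each library were whole multiples of 1 step (tolerance 0.001). That check was weak for olfactory bulb P28 cKO replicate 2, whose step is close to 1. Reads recovered this way gave the depths.

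The 9 genes and the lists were chosen with earlier results of these data known. Log2(value + 1) was fitted within each table with limma 3.58.1 (lmFit and eBayes with trend, R 4.3.3) over genes with a mean of at least 10, with the 3 ages of a region in 1 developmental fit. Adjustment was by Benjamini-Hochberg over all genes tested, with calls at 0.05. Regional differences were tested in 1 limma fit over the 3 developmental tables, on genes with a mean of at least 10 in each. The fit was tested on simulated data. Values per kb used GENCODE M21 exon lengths, with all annotated exons of a gene joined. Alternatives were other scalings, pseudocounts and filters, no trend, only the 2 ages compared, edgeR 4.0.16 and DESeq2 1.42.0 on recovered reads, the treatment label as a covariate in P28 cortex, and leaving out each library. All 9 genes were named with their values. Other pathway genes named were at most the 2 called genes per list with the largest rise and fall in each region, plus Fgfr4, Fgf9, Dusp6, Etv4, Etv5 and Spred1. For likeness, the 3 genes with the smallest difference were taken. Some genes that this rule takes are not reported here.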

Additional observations from a re-analysis of the deposited data

Results flagged for a closer look

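Of 24 regional differences in the P1 to P14 change tested for the members, 12 had a limma adjusted p under 0.05. Between hippocampus and cortex these were Fgf1 (2.03), Fgfr1 (-1.35), Spry1 (-2.40), Spry2 (-0.88) and Spry4 (-1.35). Between olfactory bulb and cortex they were Fgf1 (2.96), Fgfr3 (3.62) and Fgfrl1 (2.18). Between olfactory bulb and hippocampus they were Fgfr1 (1.94), Fgfr3 (3.68), Fgfrl1 (1.67) and Spry1 (3.68). Over all genes tested, 14.2% differed between hippocampus and cortex. For olfactory bulb the shares were 23.5% against cortex and 18.2% against hippocampus. Cell type markers moved with age by different amounts in the regions, and their part in these differences was not tested.

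In cortex at P14, Spry4 in replicate 1 (79.4 normalized reads) lay far from the other 3 libraries, which had 113 to 117. It was the only such value among 36 sets examined, each of 1 gene in 1 group of 4 libraries. Chance picks out about 1 in 20 sets, so 1 such value among 36 is not more than chance gives.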

How the results depend on the processing

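No paired analysis was possible because replicates were numbered by accession, which pairs no library of one group with one of another. The count of members called moved by over 1.5 times in 5 settings: cortex P14 against P7 went from 4 to 7 with TMM scaling and with DESeq2 (2 to 6 on leaving out 1 library, 2 without cortex P7 replicate 3), olfactory bulb P7 against P1 from 3 to 6 with only the 2 ages, and at a minimum mean of 100, where 5 members were tested, hippocampus minus cortex from 5 to 3 and olfactory bulb minus hippocampus from 4 to 2. Hippocampus P7 against P1 went from 5 to between 3 and 6 on leaving out 1 library, with 3 without P1 replicate 3 or P7 replicate 2. No called result changed direction under any alternative. Uncalled changes reversed in 57 values of 24 results, among them Fgf2 in cortex P7 against P1, Etv4 in hippocampus P14 against P1 and Spry1 in P28 olfactory bulb, which were 0.69, 0.59 and -0.49 with all libraries. With the treatment label as a covariate in P28 cortex, Fgfrl1 was -0.086, Fgf1 -0.21 and Spry2 0.063. In edgeR, Fgf2 was -0.016 and Spry2 0.0078 there, and in DESeq2 Fgf2 was -0.028. Fgfr1 in hippocampus P14 against P7 was 0.021 with TMM, 0.053 with median-ratio scaling, 0.059 in edgeR and 0.073 in DESeq2. With quantile normalization Fgfr2 in that comparison was -0.026 and Spry2 in P28 olfactory bulb 0.0098.

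Leaving out 1 library gave these ranges across 0. In cortex, Fgf2 P7 against P1 ran from -0.035 to 1.19, Spry4 P14 against P7 from -0.11 to 0.18 and Spry1 P14 against P1 from -0.013 to 0.45. In P28 cortex, Fgfr1 ran from -0.27 to 0.054, Fgfrl1 from -0.048 to 0.33, Fgf1 from -0.25 to 0.23, Fgf2 from -0.18 to 0.21 and Spry2 from -0.19 to 0.22. In hippocampus, Spry1 P7 against P1 ran from -0.50 to 0.14, Fgfr1 P14 against P7 from -0.10 to 0.14 and Etv4 P14 against P1 from -0.045 to 1.35. In P28 hippocampus, Fgfrl1 ran from -0.18 to 0.043, Fgf2 from -0.39 to 0.71, Spry1 from -0.85 to 0.32, Spry2 from -0.37 to 0.24 and Spry4 from -0.50 to 0.040. In P28 olfactory bulb, Fgfr1 ran from -0.12 to 0.21, Fgfr2 from -0.053 to 0.38, Fgf1 from -0.50 to 0.072, Spry1 from -1.09 to 0.55 and Spry2 from -0.11 to 0.043. Of regional differences, Fgfr3 for hippocampus minus cortex ran from -0.16 to 0.10 and Fgfr2 for olfactory bulb minus hippocampus from -0.33 to 0.048.

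Counts over all genes fell at a minimum mean of 100, which tests fewer genes: cortex P14 against P7 from 5893 to 3295 and against P1 from 7608 to 3986, hippocampus from 3489 to 2067 and from 5732 to 3256, olfactory bulb from 5396 to 3007 and from 6449 to 3413, olfactory bulb minus cortex from 2545 to 1584 and minus hippocampus from 1970 to 992. With only the 2 ages, P7 against P1 went from 2092 to 4312 (hippocampus) and from 1214 to 3565 (olfactory bulb, 2260 in DESeq2). At P28, cortex had 1 gene and 0 without the trend, and DESeq2 called 1 in hippocampus and 22 in olfactory bulb. On leaving out 1 library, hippocampus ran from 1356 to 2706 (P7 against P1) and 2046 to 4086 (P14 against P7), olfactory bulb from 517 to 1708 (P7 against P1), and P28 hippocampus and olfactory bulb from 0 to 1. TMM moved the cortex P14 against P1 median of all genes from -0.27 to 0.01 and the split from 2843 higher and 4765 lower to 3796 and 3646. Apart from the changes above, the cause of which was not tested, 1946 log2 changes of genes kept their side of the threshold, 31 lost a call and 24 gained one, not counting left-out libraries. Low reads limit Fgf2 and Spry1, and Fgfr3 in olfactory bulb at P1.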
